A study of Homo sapiens with 24 samples.

Results

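Testis isoforms of metabolic enzymes were followed in HCT116, an established human colorectal cancer cell line, after 72 h with compounds that target DNA methyltransferases. The 10 genes were TKTL1, TKTL2 and TKT of the transketolase family, the cytochrome c oxidase subunits COX8C, COX6B2 and COX7B2, and the fuel enzymes LDHC, PGK2, PDHA2 and GAPDHS. They were chosen by gene symbol, with the response of earlier results in view, and every probe set of the array (a group of short probes read as 1 value) that carried only that symbol was taken. This gave 13 probe sets for 10 genes, of 41091 probe sets for 19775 genes. All 13 passed the filter on low values, a log2 level of 5 on at least 2 arrays, as did 35146 probe sets of 18055 genes in all. TKT is the transketolase of all tissues and was included beside its testis relatives.

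The 24 Affymetrix HG-U133 Plus 2.0 arrays formed 11 groups of the same unmodified line. There were 4 arrays with the solvent dimethyl sulfoxide (DMSO) alone and 2 for each of 10 treatments, in which the compounds were added in the same solvent. Decitabine (DAC) arrays came from 5 µM and from 120 nM, and those of G668684 from 7 µM and from 150 nM. Azacytidine (Aza) and G669043 each had arrays at 1500 and 150 nM. The labels of G669071 give 1 dose in the title and another in the source name, so its groups are named here only by which dose was higher. The titles hold the word phos for G669071, ester for G668684 and the prefix Aza for G669043, which were not read as a structure. Whether the arrays of a group hold RNA of separate cultures is not in the labels. The p-values then reflect only how far these samples spread, part of which can be technical.

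Transketolase moves carbon units between sugar phosphates in the non-oxidative branch of the pentose phosphate pathway, which links glycolysis with the making of ribose for nucleotides. Sperm cells carry their own versions of several energy enzymes, among them lactate dehydrogenase C, phosphoglycerate kinase 2, the testis form of the pyruvate dehydrogenase alpha subunit, sperm glyceraldehyde phosphate dehydrogenase and 3 nuclear subunits of cytochrome c oxidase, the last complex of the respiratory chain. DAC and Aza are cytidine analogs that trap DNA methyltransferases on DNA, so that CG methylation is lost as cells divide, and genes kept silent outside the germ line are often read in such cells.

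The RefSeq promoter table (GRCh38.p14) held windows of 300 bases, 250 before to 50 after a start site, for all 10 genes, with 11 windows in all because TKTL1 had 2. The 250 bases before the start are shown for the 4 genes whose levels rose most, since CG pairs are where these enzymes act; the capitals mark each CG. TKTL1 is read from chrX:154295545-154295794 on the plus strand, TKTL2 from chr4:163473755-163474004 on the minus strand, COX8C from chr14:93346932-93347181 on the plus strand and COX7B2 from chr4:46909246-46909495 on the minus strand.
TKTL1: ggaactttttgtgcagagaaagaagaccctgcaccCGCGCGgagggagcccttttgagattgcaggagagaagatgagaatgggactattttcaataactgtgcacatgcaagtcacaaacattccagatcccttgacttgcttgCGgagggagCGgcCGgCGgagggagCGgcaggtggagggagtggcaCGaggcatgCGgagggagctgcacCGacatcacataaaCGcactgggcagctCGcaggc
TKTL2: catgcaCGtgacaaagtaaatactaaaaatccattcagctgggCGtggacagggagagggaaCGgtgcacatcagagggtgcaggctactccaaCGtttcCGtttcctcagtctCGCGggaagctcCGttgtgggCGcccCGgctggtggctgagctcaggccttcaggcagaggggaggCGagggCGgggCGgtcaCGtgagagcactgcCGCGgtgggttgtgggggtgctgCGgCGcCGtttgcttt
COX8C: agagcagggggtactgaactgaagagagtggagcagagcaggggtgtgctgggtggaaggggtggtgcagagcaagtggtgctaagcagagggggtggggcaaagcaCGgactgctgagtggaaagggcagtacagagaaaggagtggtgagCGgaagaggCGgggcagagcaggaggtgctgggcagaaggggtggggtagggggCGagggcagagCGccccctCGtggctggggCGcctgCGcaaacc
COX7B2: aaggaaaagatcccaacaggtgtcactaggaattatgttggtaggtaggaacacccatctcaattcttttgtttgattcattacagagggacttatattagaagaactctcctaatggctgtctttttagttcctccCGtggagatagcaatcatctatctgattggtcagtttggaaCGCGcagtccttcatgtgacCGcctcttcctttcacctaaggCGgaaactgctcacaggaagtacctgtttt

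In the full 300 bases the CG pair occurred 18 times for TKTL1 at this start and 8 times at its other start, on the plus strand at chrX:154304920-154305219. It occurred 24 times for TKTL2, 10 times for COX8C and 8 times for COX7B2. Among the genes that moved less, TKT and COX6B2 each had 31, LDHC 25, GAPDHS 19, PDHA2 17 and PGK2 6, so the counts of the raised genes lay within the range of the others. The median of all 34796 windows was 14, and 96.0% of windows held at least 1 CG. The longer motifs below were searched on both strands, each of which contains a CG. The E-box CACGTG, found in 7.2% of all windows, occurred 2 times for TKTL2 and in no other of these windows. The GC box GGGCGG, found in 44.9%, occurred 5 times for TKT, 2 times for TKTL2 and 1 time each for COX6B2, LDHC, PGK2 and GAPDHS. The ETS motif CCGGAA, found in 17.2%, occurred 2 times for PDHA2 only. DNA methylation was not measured in this series, and a match to letters is only a description of the window.

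Array medians lay between 6.46 and 6.58 log2. The epithelial markers EPCAM, KRT8, KRT18 and CDH1 were high on every array, with group means of EPCAM from 12.61 to 13.20, while KRT20 went from 5.87 in DMSO to 9.56 in the highest group mean. The intestinal markers VIL1, CDX1, CDX2, LGALS4 and CDH17 averaged between 6.78 and 7.40 in DMSO. Of 10 markers of blood, stromal, vessel, Leydig and germ cells, the DMSO means were 4.39 for PTPRC, 8.15 for CD3E and 5.52 for CD14 (blood), 9.98 for COL1A1, 4.80 for COL3A1 and 7.37 for DCN (stroma), 8.05 for PECAM1 (vessel), and 7.18 for INSL3 and 5.04 for STAR (Leydig). PTPRC lay between 4.22 and 4.58 on all arrays. The germ cell marker DDX4 went from 5.40 in DMSO to 7.02 in its highest group mean. The mean level over these 10 markers ranged from 6.48 to 6.72 on the DMSO arrays and from 6.43 to 6.79 on the treated ones, and their part in the results below was not tested. The table holds no detection calls, and in bulk RNA a level cannot tell fewer expressing cells from less RNA per cell.

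TKTL1, a transketolase-like protein found in testis and in some tumours, was the gene that moved most. Its level was low with DMSO and high with both doses of DAC, G669071 and G668684 and the higher dose of Aza and G669043. With G669043 at 150 nM it overlapped DMSO. With Aza at 150 nM it lay above DMSO on probe set 214183_s_at and overlapped DMSO on the other. On probe set 214183_s_at the 4 DMSO arrays read 5.33, 4.70, 5.54 and 5.38 log2. The arrays read 12.24 and 12.25 with DAC at 5 µM, 12.93 and 12.95 at 120 nM, 12.75 and 12.76 with the higher and 12.40 and 12.45 with the lower dose of G669071, and with G668684 12.19 and 12.32 at 7 µM, 12.81 and 12.88 at 150 nM. Aza gave 11.02 and 10.93 at 1500 nM and 7.13 and 6.73 at 150 nM, and G669043 gave 11.36 and 11.41 at 1500 nM and 5.54 and 5.18 at 150 nM. Every treated group except G669043 at 150 nM lay above all DMSO arrays.

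Ordered by mean, the levels of TKTL1 ran from DAC 120 nM through G668684 150 nM, G669071 higher dose, G669071 lower dose, G668684 7 µM, DAC 5 µM, G669043 1500 nM, Aza 1500 nM and Aza 150 nM to G669043 150 nM and DMSO. Neighbours overlapped at 2 places, between G668684 7 µM and DAC 5 µM and between G669043 150 nM and DMSO. The difference from DMSO was 7.70 ± 0.16 log2 (SE) with DAC at 120 nM and 7.01 at 5 µM, with the same error for every treated group. It was 5.74 with Aza and 6.15 with G669043 at 1500 nM, and 1.69 and 0.12 at 150 nM. These differences entered the choice of the gene and are given without a test. One DMSO array lay under the filter level of 5, so the size of the fold is not settled.

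The second TKTL1 probe set, 216370_s_at, read 6.63, 6.06, 5.75 and 6.04 with DMSO and showed the same order of group means. Its difference from DMSO was smaller, with group means of 12.26 for DAC at 120 nM and 11.29 at 5 µM against 6.12 for DMSO. Its arrays with Aza at 150 nM, 6.26 and 6.76, and with G669043 at 150 nM, 6.45 and 6.53, overlapped each other and the DMSO arrays. The probe sets therefore differed on whether Aza at 150 nM stood above DMSO.

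**Figure D1:**
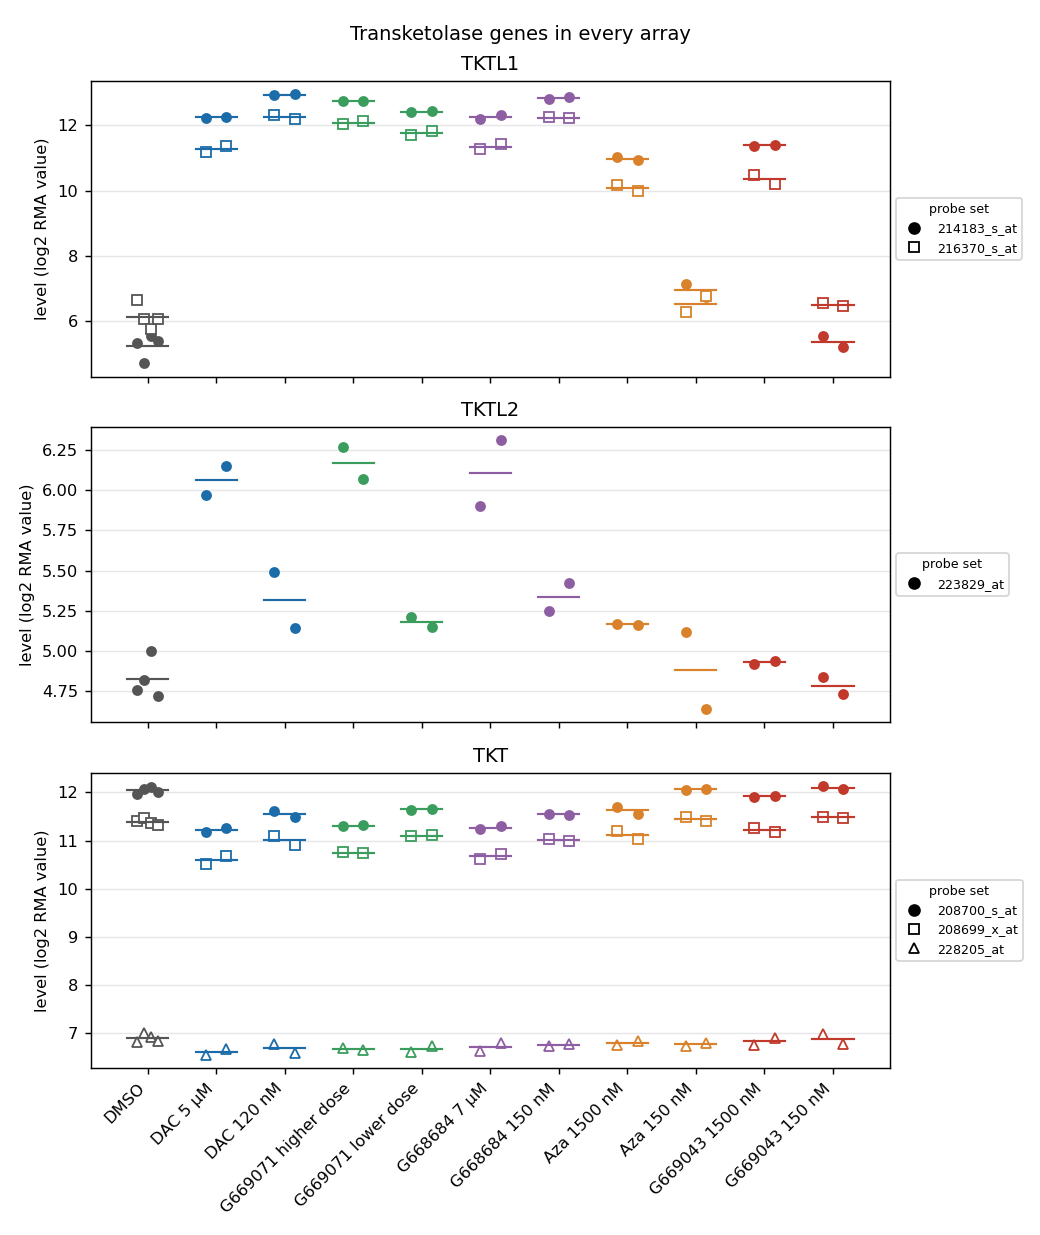
Log2 RMA level of every probe set of TKTL1, TKTL2 and TKT on each of the 24 arrays, by treatment group; points are arrays, horizontal lines are group means and symbols are probe sets. TKTL1 lies between 12.19 and 12.95 on probe set 214183_s_at in both doses of DAC, G669071 and G668684, TKTL2 is highest in their higher doses, and TKT is lowest there.

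TKTL2, a transketolase-like gene without introns that is read mainly in testis, moved less and in another order. The DMSO arrays read 4.76, 4.82, 5.00 and 4.72 log2. DAC gave 5.97 and 6.15 at 5 µM and 5.49 and 5.14 at 120 nM, G669071 gave 6.27 and 6.07 at the higher and 5.21 and 5.15 at the lower dose, and G668684 gave 5.90 and 6.31 at 7 µM and 5.25 and 5.42 at 150 nM. Those 6 groups and Aza at 1500 nM, at 5.17 and 5.16, lay above all DMSO arrays.

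The remaining groups overlapped DMSO, with 5.12 and 4.64 for Aza at 150 nM, 4.92 and 4.94 for G669043 at 1500 nM and 4.84 and 4.73 at 150 nM. The 3 highest groups overlapped one another. The largest difference from DMSO was 1.34 ± 0.14 log2 (SE), with the higher dose of G669071. Only 1 of 4 DMSO arrays reached the filter level, so the gene passed the filter largely through its treated arrays.

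TKT, the transketolase of most tissues, went the other way. Probe set 208700_s_at averaged 12.04 ± 0.06 (SD, n = 4) with DMSO, and 8 treated groups lay below all DMSO arrays. The lowest arrays were 11.17 and 11.26 with DAC at 5 µM, 11.23 and 11.31 with G668684 at 7 µM, and 11.30 and 11.32 with the higher dose of G669071. Aza at 150 nM, with 12.05 and 12.07, and G669043 at 150 nM, with 12.06 and 12.13, overlapped DMSO.

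The difference of TKT from DMSO was -0.82 ± 0.05 log2 (SE) with DAC at 5 µM. Probe set 208699_x_at lay below DMSO in the same number of groups, 8, and its mean was 11.39 with DMSO and 10.60 with DAC at 5 µM. With G669043 at 150 nM this probe set lay just above all DMSO arrays, at 11.47 and 11.49 against at most 11.46. The third probe set, 228205_at, lay below all DMSO arrays in 7 groups. It spanned only 0.28 log2 between group means, with 6.90 for DMSO and 6.62 for DAC at 5 µM.

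COX8C, the testis form of the smallest oxidase subunit, had the largest rise after TKTL1 among the 10 genes. The DMSO arrays read 4.83, 4.66, 5.26 and 4.89 log2. The highest arrays were 9.65 and 9.68 with the higher dose of G669071, followed by 9.36 and 9.55 with G668684 at 7 µM and 9.37 and 9.48 with DAC at 5 µM, which overlapped. The lower doses gave 8.53 and 9.04 with DAC, 8.56 and 8.97 with G668684 and 8.43 and 8.37 with G669071.

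With 1500 nM, COX8C reached 7.11 and 7.06 with Aza and 7.00 and 7.24 with G669043. With 150 nM it read 5.03 and 5.01 with Aza and 4.91 and 4.30 with G669043, and both groups overlapped DMSO. The difference from DMSO was 4.76 ± 0.17 log2 (SE) with the higher dose of G669071, 4.52 with DAC at 5 µM and 2.18 with Aza at 1500 nM. Only 1 DMSO array reached the filter level of 5, so here too the gene passed the filter largely through its treated arrays and the fold has no settled size.

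COX7B2, the testis relative of the oxidase subunit VIIb, was higher than every DMSO array in 8 groups. The DMSO arrays read 6.38, 6.15, 6.07 and 6.44 log2. The highest arrays, 8.0 and 8.14, were those with G668684 at 150 nM, and they overlapped the higher dose of G669071 at 7.84 and 8.05. The lower dose of G669071 gave 7.91 and 7.90, DAC at 120 nM gave 7.86 and 7.84 and at 5 µM 7.43 and 7.54, and G668684 at 7 µM gave 7.58 and 7.41.

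COX7B2 read 6.93 and 7.01 with Aza and 7.10 and 7.22 with G669043 at 1500 nM. At 150 nM it overlapped DMSO with Aza, at 6.18 and 6.09, and lay below it with G669043, at 5.85 and 5.98. The difference from DMSO was 1.81 ± 0.10 log2 (SE) with G668684 at 150 nM and 1.23 with DAC at 5 µM.

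The other 5 genes stayed within a narrow range, with group means that spanned 0.205 to 0.63 log2. COX6B2, the testis form of oxidase subunit VIb, lay between 6.73 and 7.11 on all 24 arrays, and no group was separate from DMSO. LDHC, the lactate dehydrogenase of sperm, lay between 7.05 and 7.82. The 4 DMSO arrays of LDHC were close together, 7.50 to 7.56, so that 5 treated groups lay above them and G669043 at 150 nM, at 7.45 and 7.46, below.

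PGK2, the phosphoglycerate kinase of sperm, ranged from 6.23 to 6.85 and had no group separate from DMSO. PDHA2, the testis pyruvate dehydrogenase alpha subunit, ranged from 5.59 to 6.17 and lay above DMSO with DAC at 5 µM and with Aza at 1500 nM. GAPDHS, the sperm glyceraldehyde phosphate dehydrogenase, ranged from 5.04 to 6.08 and lay below DMSO only with G669043 at 150 nM, at 5.33 and 5.04. The widest pairs were DAC at 120 nM for LDHC, with 7.05 and 7.58, and for GAPDHS, with 6.08 and 5.55.

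**Figure D2:**
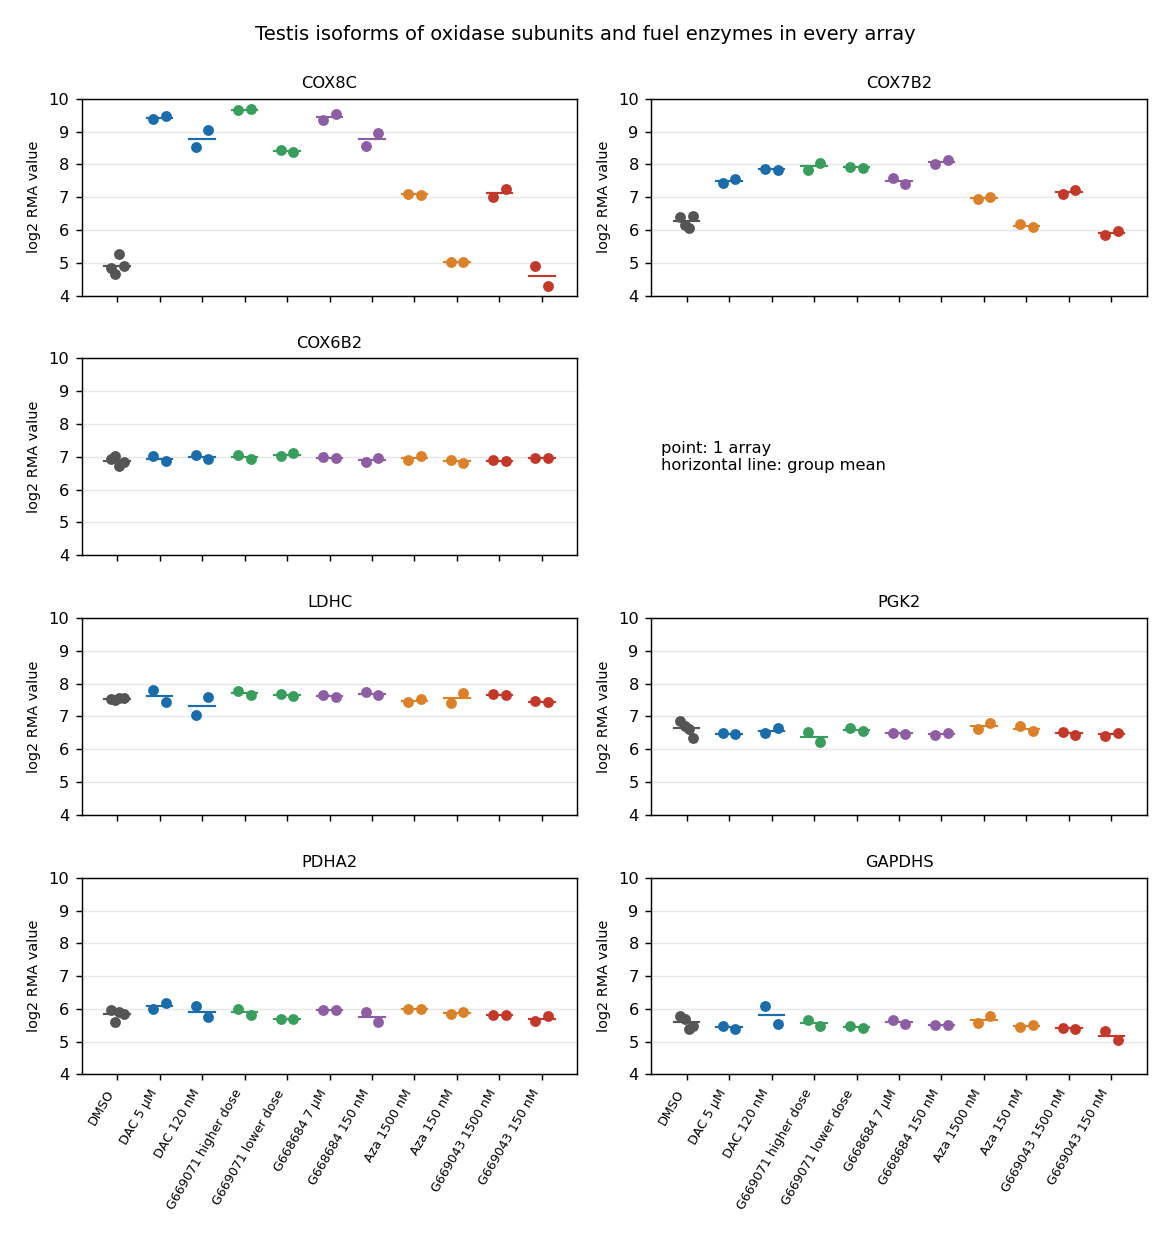
Log2 RMA level of COX8C, COX7B2, COX6B2, LDHC, PGK2, PDHA2 and GAPDHS on each of the 24 arrays, with the same vertical axis in each panel; points are arrays and horizontal lines are group means. COX8C reaches 9.68 and COX7B2 8.14, while the group means of the other 5 genes span no more than 0.63 log2.

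Counted over the 10 genes, 5 lay above and 1 below all DMSO arrays with DAC at 5 µM, where 42.6% of the 18055 genes were separate in either direction. With DAC at 120 nM it was 4 above and 1 below, against 29.6% of all genes. For the higher dose of G669071 it was 5 and 1 (40.5% of all genes), for the lower dose 5 and 1 (30.4%), for G668684 at 7 µM 5 and 1 (41%) and at 150 nM 5 and 1 (30.2%). Aza at 1500 nM had 5 above and 1 below (29.4%) and at 150 nM only TKTL1 above (17.5%). G669043 had 4 above and 1 below at 1500 nM (23.7%), and at 150 nM 3 below, COX7B2, GAPDHS and LDHC (21.5%). The genes were chosen with these contrasts known, so nothing is read from their counts. The gene below was TKT in each group with 1 below.

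**Figure D3:**
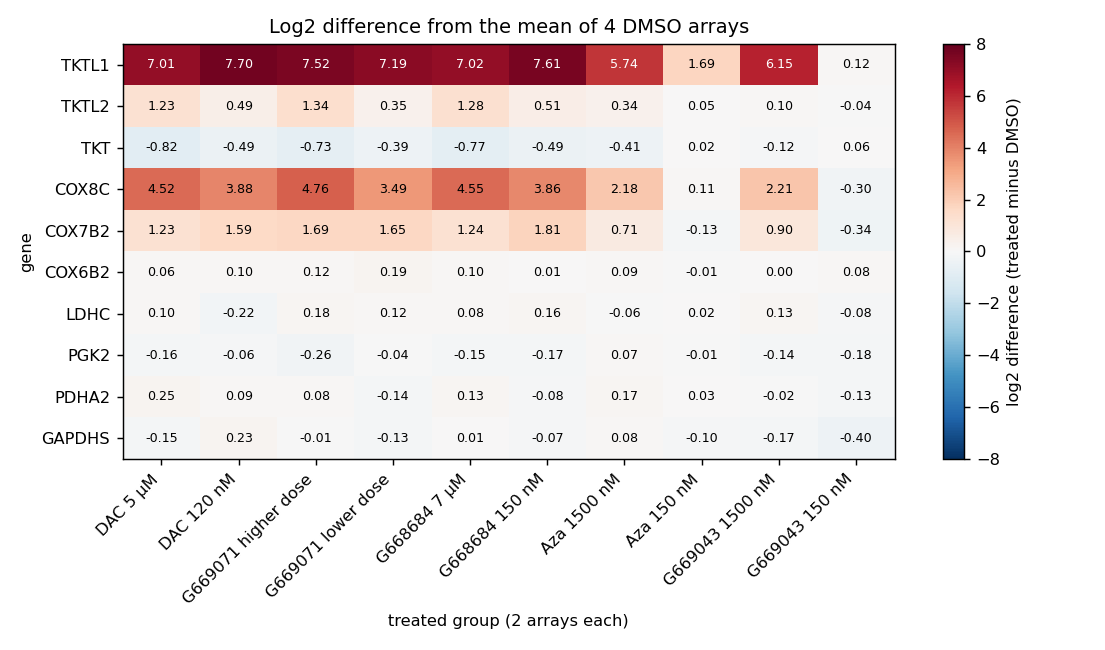
Log2 difference of each treated group (2 arrays) from the mean of the 4 DMSO arrays for the 10 genes, on the probe set with the highest mean of each gene; red is higher and blue lower than DMSO. TKTL1 and COX8C rise most, with 7.70 and 4.76 at their highest, and TKT is lower in 8 groups, down to -0.82.

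The comparison of doses within a compound asked whether more drug gave more of each gene. For DAC and G668684 the direction differed between the genes. The group means of TKTL1 and COX7B2 were lower and those of TKTL2 and COX8C higher at the higher dose. Several of these differences lost their call when a single array was left out. For Aza and G669043, whose lower dose had left most of these genes at the DMSO level, TKTL1, COX8C and COX7B2 were all higher at the higher dose. Those lower doses lay at or near DMSO, with exceptions. TKTL1 with Aza was 1.69 log2 above DMSO on probe set 214183_s_at. COX7B2 with G669043 lay below all DMSO arrays, with a difference of -0.34 log2. The differences for Aza and G669043 thus largely repeat the rises over DMSO that entered the choice of genes, and they are given without a test. TKTL2 stood only 0.49, 0.35 and 0.51 log2 above DMSO at the lower dose of DAC, G669071 and G668684. Its differences between these doses thus also largely repeat its rise over DMSO and are given without a test. The p-values for the other genes with these compounds are from limma, adjusted by Benjamini-Hochberg over 18055 genes.

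With DAC, 5 of 10 genes passed an adjusted p of 0.05, against 14.7% of all genes tested. The genes were chosen with their response in view, so nothing is read from this count or from those with the other compounds below. TKTL1 fell by 0.70 ± 0.18 log2 (SE) from 120 nM to 5 µM (limma adjusted p = 0.012), which is 1.62-fold, and COX7B2 fell by 0.36 ± 0.11 (adjusted p = 0.036). TKT fell by 0.33 ± 0.06 (adjusted p = 8.5e-04). COX8C rose by 0.64 ± 0.19 (adjusted p = 0.031) and TKTL2 by 0.74 ± 0.16, the latter given without a test. The second TKTL1 probe set fell by 0.97 ± 0.19. TKTL1 lost its call without either array of DAC at 5 µM or without replicate 1 at 120 nM (adjusted p = 0.056 to 0.072), COX8C lost it without the same arrays (0.091 to 0.38), and COX7B2 without any 1 of the 4 arrays (0.074 to 0.21). Centring the arrays on their medians also ended the calls for COX8C (adjusted p = 0.055) and COX7B2 (0.053), and a fit of only the compared groups those for COX8C (0.096), COX7B2 (0.11) and TKT (0.10).

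With G668684, 5 of 10 genes were called, against 11.6% of all genes, in the same directions as with DAC. TKTL1 fell by 0.59 ± 0.18 log2 (SE) from 150 nM to 7 µM (limma adjusted p = 0.039), COX7B2 by 0.58 ± 0.11 (adjusted p = 0.0018) and TKT by 0.27 ± 0.06 (adjusted p = 0.0055). COX8C rose by 0.69 ± 0.19 (adjusted p = 0.024) and TKTL2 by 0.77 ± 0.16, the latter given without a test. The second TKTL1 probe set fell by 0.89 ± 0.19. The call for TKTL1 was lost without any 1 of the 4 arrays (adjusted p = 0.093 to 0.21). Leaving out G668684 7 µM replicate 1, 7 µM replicate 2 or 150 nM replicate 1 ended the call for COX8C. Without 7 µM replicate 1 or 150 nM replicate 1 the call for TKT was lost. The difference of TKTL2 was 0.57 without 7 µM replicate 2. Centring ended the calls for TKTL1 (adjusted p = 0.095) and TKT (0.061), and a fit of only the compared groups that for TKT (0.052).

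With G669071, 3 of 10 genes were called, against 9.35% of all genes. COX8C rose by 1.27 ± 0.19 log2 (SE) from the lower to the higher dose (limma adjusted p = 2.2e-04). TKT fell by 0.34 ± 0.06 (adjusted p = 0.0013). TKTL2 rose by 0.99 ± 0.16, given without a test. TKTL1 differed by 0.33, with a 95% interval from -0.05 to 0.71 (adjusted p = 0.32), and COX7B2 by 0.04, with an interval from -0.20 to 0.28.

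With Aza, 5.79% of all genes were called between the doses, as were 4 of the 10, from which nothing is read. The difference of 1500 from 150 nM was 4.05 ± 0.18 log2 (SE) for TKTL1, 2.07 ± 0.19 for COX8C, 0.84 ± 0.11 for COX7B2 and -0.44 ± 0.06 for TKT. TKTL2 differed by 0.28 ± 0.16.

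With G669043, 3.87% of all genes were called between the doses, as were 3 of the 10, from which again nothing is read. The difference of 1500 from 150 nM was 6.03 ± 0.18 log2 (SE) for TKTL1, 2.52 ± 0.19 for COX8C, 1.25 ± 0.11 for COX7B2 and -0.18 ± 0.06 for TKT. TKTL1 and COX8C overlapped DMSO at 150 nM, near the filter level, so the sizes of these differences are not settled. COX6B2, LDHC, PGK2, PDHA2 and GAPDHS passed the threshold in none of the 5 comparisons of doses.

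The direction for TKT at the higher dose rests on its probe sets 208700_s_at and 208699_x_at. In a fit of all kept probe sets, 208699_x_at fell by 0.40 ± 0.08 log2 (SE) with DAC and by 0.33 ± 0.08 with Aza. The third, 228205_at, differed by -0.07 ± 0.10 with DAC (limma adjusted p = 0.73) and by 0.02 ± 0.10 with Aza.

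**Figure D4:**
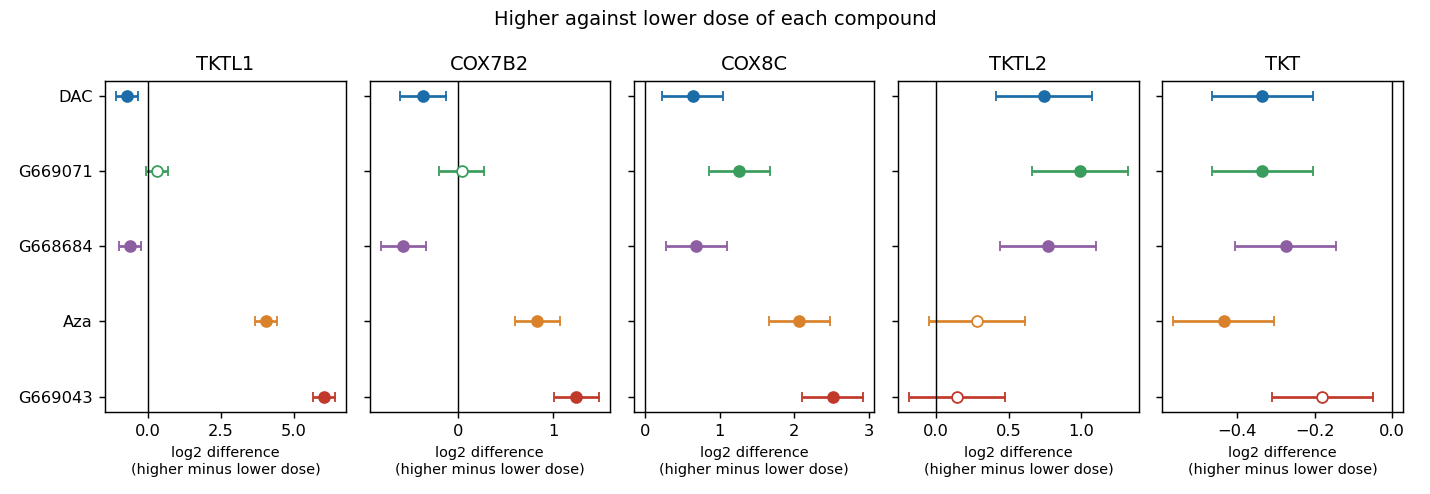
Log2 difference between the higher and the lower dose of each compound for TKTL1, COX7B2, COX8C, TKTL2 and TKT, with 95% intervals from limma; filled points passed an adjusted p of 0.05 over 18055 genes and open points did not, and the horizontal axis differs between panels. For Aza and G669043 these marks are a description, since their lower doses lay near DMSO for most of these genes. The marks of TKTL2 are likewise a description with every compound. With DAC and G668684 TKTL1 and COX7B2 lie below 0 and COX8C and TKTL2 above it, while TKTL1 reaches 6.03 with G669043.

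The doses of Aza and G669043 matched, so these compounds were compared directly, in 2 comparisons. At 150 nM 0.0665% of all genes were called, and of the 10 only TKTL1, from which nothing is read. TKTL1 was lower with G669043 than with Aza by 1.57 log2 (95% interval of the difference from -1.95 to -1.19). The arrays read 5.54 and 5.18 against 7.13 and 6.73. On its second probe set the difference was -0.02 ± 0.19 (SE), so it rests on probe set 214183_s_at. G669043 at 150 nM overlapped DMSO there, so the size of the difference is not settled. The difference largely repeats the rise of Aza over DMSO that entered the choice of the gene, and it is given without a test.

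At 1500 nM TKT was the only 1 of the 10 genes called, against 2.13% of all genes. It was higher with G669043 than with Aza by 0.29 ± 0.06 log2 (SE; limma adjusted p = 0.018), with 11.91 and 11.92 against 11.69 and 11.56. Its other probe sets differed by 0.10 and 0.04 and were not called, the mean of its probe sets differed by 0.14 (adjusted p = 0.33), and the call was lost without Aza replicate 2 (adjusted p = 0.31), G669043 replicate 1 (0.075) or G669043 replicate 2 (0.21). TKTL1 differed by 0.41 in the same direction (95% interval from 0.03 to 0.79, adjusted p = 0.27). COX8C differed by 0.03 (interval from -0.37 to 0.44) and COX7B2 by 0.19 (interval from -0.05 to 0.43).

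The somatic counterparts of the testis isoforms, which fill the same roles in most cells, differed from DMSO by at most 0.30 log2 where they were called. With DAC at 5 µM 3 of 8 were called higher, against 18% of all genes, and 2 lower, against 14.2%. COX6B1 rose by 0.29 ± 0.05 log2 (SE; limma adjusted p = 1.2e-04), COX7B by 0.25 ± 0.05 and COX8A by 0.16 ± 0.05. In the same comparison the testis forms differed by 0.06 for COX6B2, 1.23 for COX7B2 and 4.52 for COX8C. LDHB fell by 0.20 ± 0.03 (adjusted p = 1.9e-05) and GAPDH by 0.13 ± 0.04 (adjusted p = 0.011), while LDHA, PGK1 and PDHA1 were not called, at 0.05, 0.16 and -0.09.

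With G668684 at 7 µM the same oxidase subunits, COX6B1, COX7B and COX8A, were called higher (17.5% of all genes) and only LDHB lower (14.7%). With the higher dose of G669071 COX6B1 was the 1 called higher (15.8%) and LDHB the 1 lower (13.7%). DAC at 120 nM gave 0 higher (12.5%) and LDHB lower by 0.10 (9.9%), Aza at 1500 nM gave 0 higher (8.13%) and LDHB and PDHA1 lower (9.18%), and G669043 at 1500 nM gave 0 in either direction (5.88% and 3.25%).

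Of the 11 other cytochrome c oxidase subunits tested, 7 were higher (18% of all genes) and 0 lower (14.2%) with DAC at 5 µM, with a median of 0.28 log2 against -0.04 for all genes. COX7A1, the subunit of heart and skeletal muscle, rose most, by 1.33 ± 0.12 log2 (SE; limma adjusted p = 4.2e-08), ahead of COX5B and COX7A2, at 0.36 each. The higher doses raised 7 of them with G668684 (17.5% of all genes) and 6 with G669071 (15.8%), COX7A1 by 1.26 and 1.15. The count with G669071 was lower without replicate 1 of its higher dose. At DAC 120 nM COX7A1 alone was called higher (12.5%), by 0.79 ± 0.12, and Aza at 1500 nM called 0 of 11 (8.13% higher and 9.18% lower of all genes).

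Of the 13 other genes of the pentose phosphate pathway tested, 0 rose and 4 fell with DAC at 5 µM, where 18% of all genes rose and 14.2% fell. At 120 nM 1 rose and 5 fell, against 12.5% and 9.9% of all genes. With DAC at 5 µM DERA, deoxyribose phosphate aldolase, fell by 0.60 ± 0.13 log2 (SE, limma adjusted p = 0.0010). At this dose PRPS2, which makes the activated ribose of nucleotide synthesis, fell by 0.44 ± 0.15 (limma adjusted p = 0.028). SHPK, sedoheptulose kinase, fell by 0.44 ± 0.07 at 5 µM (limma adjusted p = 9.0e-05) and was not called at 120 nM. RPIA, ribose phosphate isomerase, fell by 0.33 ± 0.07 with DAC at 5 µM (limma adjusted p = 7.3e-04). RPIA also fell by 0.48 with the higher dose of G669071 and by 0.41 with G668684 at 7 µM. TALDO1, transaldolase, the partner of transketolase in the same branch, was called higher only at DAC 120 nM among the comparisons named here, by 0.20 ± 0.06 (adjusted p = 0.027). Aza at 1500 nM called 0 of 13 (8.13% and 9.18% of all genes). With G669043 at 1500 nM PGD, phosphogluconate dehydrogenase, was called higher by 0.23 ± 0.06 and RPIA lower by 0.28 ± 0.07 (5.88% and 3.25% of all genes). Both calls were lost without replicate 1 of that group.

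Of 30 genes of glycolysis and pyruvate entry tested, 8 rose and 8 fell with DAC at 5 µM, against 18% and 14.2% of all genes. SLC2A1, a glucose transporter, rose by 1.54 ± 0.08 log2 (SE; limma adjusted p = 5.5e-12), MPC1, a mitochondrial pyruvate carrier, by 0.77 ± 0.10 and PDK1, a kinase that turns off pyruvate dehydrogenase, by 0.75 ± 0.16. PFKM, a phosphofructokinase, fell by 0.96 ± 0.06 (adjusted p = 1.1e-10), PDK3 by 0.67 ± 0.07 and GPI, glucose phosphate isomerase, by 0.64 ± 0.05. With Aza at 1500 nM, where 8.13% of all genes rose and 9.18% fell, 2 rose, SLC2A1 by 1.14 ± 0.08 and PFKP by 0.41 ± 0.06, and 5 fell, ALDOC by 0.82 ± 0.08, PDK4 by 0.65 ± 0.14 and PDK3 by 0.49 ± 0.07 the most. With G669043 at 1500 nM (5.88% and 3.25% of all genes) SLC2A1 rose by 1.12 ± 0.08 and PFKP by 0.24 ± 0.06, and PFKM fell by 0.41 ± 0.06 and PDK3 by 0.39 ± 0.07.

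Of a further 13 testis isoforms of metabolic proteins, 8 had a probe set with their symbol alone and 6 passed the filter and were tested against DMSO: ACSBG2, AKR1E2, GK2, GOT1L1, LDHAL6A and PRPS1L1. None was called by limma in any of the 10 comparisons with DMSO, and of 60 tests 2 had an unadjusted p under 0.05. With no filter on low values 3 calls, all higher, were made over the 10 comparisons. With DAC at 5 µM they differed by -0.17 to 0.15 log2, where TKTL1 differed by 7.01.

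Across the 11 group means TKTL1 correlated with COX7B2 at r = 0.953, with COX8C at 0.944, with TKTL2 at 0.668 and with TKT at -0.828, and COX8C with TKT at -0.948. These are descriptions of genes that were read on the same arrays, with the same normalization, and chosen for their response. Among the genes that were not of the 10, VIM, the intermediate filament of mesenchymal cells, was most like TKTL1 by Pearson's r over the 11 group means, at 0.994 (0.993 over 24 arrays), with 7.95 log2 for DMSO and 11.79 for DAC at 120 nM. It was followed by GCNA, a germ cell nuclear protein, at 0.992, the cancer-testis genes MAGEA4, MAGEA1 and MAGEA11 at 0.992, 0.991 and 0.988, and the clock gene PER3 at 0.983.

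For COX8C the closest genes were ZFP42, a zinc finger factor of pluripotent cells, at 0.996, MAGEA8 at 0.995 and DCAF4L1 at 0.994. For COX7B2 they were LOC151760 at 0.988, LIN28B, a regulator of let-7 microRNAs, at 0.986 and PPP1R14A, an inhibitor of myosin phosphatase, at 0.986. For TKTL2 they were CALCB, a calcitonin gene-related peptide, at 0.993, BHMT2, a homocysteine methyltransferase, at 0.989 and SPAAR at 0.989. Over the 24 single arrays the value for SPAAR was 0.781, and its group means spanned 0.37 log2, while the value for BHMT2 was 0.968. Over the same arrays CALCB stood at 0.921, rank 86 for TKTL2, and LOC151760 at 0.938, rank 37 for COX7B2. Many other genes also had a high r with each of these genes and with TKTL1, so the named ones are not set apart.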

How the data were processed

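Per the submitters' processing notes the authors used Affymetrix Expression Console 1.1 and RMA. The deposited table gives a linear intensity for 54675 probe sets. The log2 of each deposited value, which fell on steps of 0.01, was analysed. No genome build is given in the sources used here. Gene names came from the array's probe annotation, where 41091 probe sets had 1 symbol, 1801 several and 11721 none, and 62 were controls. Promoter sequences came from RefSeq (GRCh38.p14).

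Probe sets at a log2 level of 5 on at least 2 arrays were kept, and the one with the highest mean stood for a gene. A model with 11 group means was fitted over the 24 arrays (limma 3.58.1, R 4.3.3, intensity trend, 13 residual and 6.14 prior degrees of freedom), 2-sided, with Benjamini-Hochberg adjustment over 18055 genes. The fit was tested on simulated data. Separation of groups was counted as all treated arrays beyond all DMSO arrays. Tables and figures used Python 3.11.15, pandas 2.3.3 and matplotlib 3.10.9. Precision is limited by how few arrays a group has.

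The genes and lists were chosen with earlier results of these data known. Named were all 10 genes, their 8 somatic counterparts, of each other list up to 3 called highest and 3 lowest against DMSO with DAC at 5 µM, Aza at 1500 nM and G669043 at 1500 nM, and the genes most alike over group means, 6 for TKTL1 and 3 for each other gene whose group means spanned at least 1 log2. Further list genes were named after their values were seen. Replicate numbers were not taken to pair the arrays, as the labels give them no meaning and not every pair of groups correlated. The difference of replicate 1 minus replicate 2 within a group was correlated across genes with that of each other group. Over 55 pairs of groups this correlation ranged from -0.39 to 0.61, with 20 over 0.1. Alternatives were the filter, the scaling, the choice of probe sets, the trend, the replicate block, the DMSO arrays used, the groups fitted and each array left out.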

Additional observations from a re-analysis of the deposited data

Results flagged for a closer look

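The change of TKTL1 from 150 to 1500 nM was larger with G669043 than with Aza by 1.98 ± 0.26 log2 (SE). It was singled out by a test of the difference between the compounds that was added after the data were seen, so it is given as a description. The rise was 6.03 with G669043 and 4.05 with Aza, in both arrays of each group. On probe set 216370_s_at the same difference was 0.28 ± 0.27 (SE). At 150 nM the G669043 arrays overlapped DMSO on probe set 214183_s_at, so the size of the difference is not settled. No DMSO array of the 13 probe sets stood apart from the other 3 by Dixon's test.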

How the results depend on the processing

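For TKTL1, 174 results under other settings kept their direction and their side of the threshold, while 9 moved in size, 3 gained a call and 1 lost it. With 1 array left out 81 results were kept and 7 lost a call, all between doses of DAC or G668684. Taking the mean of its probe sets lowered its difference from DMSO to 6.09 with DAC at 5 µM, 6.92 at 120 nM, 6.74 and 6.42 with the higher and lower dose of G669071, 6.12 with G668684 at 7 µM, 6.86 at 150 nM, 4.85 and 1.04 with Aza at 1500 and 150 nM, and 5.18 with G669043 at 1500 nM. Centring the arrays ended its call between doses of G668684 (-0.55, adjusted p = 0.095). Fitting only the groups compared called TKTL1 for the doses of G669071 (0.33, adjusted p = 7.7e-07) and for G669043 against Aza at 1500 nM (0.41, adjusted p = 0.0059), and DMSO replicates 3 and 4 alone called the latter (0.41, adjusted p = 0.037). Without 1 array the dose difference of TKTL1 ran from -0.71 to -0.69 with DAC and from -0.65 to -0.52 with G668684. For TKT, a new quantile normalization gave -0.066 with G669043 at 150 nM against DMSO, and leaving out probe sets ending in _x_at or _s_at gave -0.12 with Aza at 150 nM, 5.24e-05 between doses of G669071 and 0.025 between doses of Aza. TKTL2 with Aza at 150 nM lay between -0.19 and 0.30 without 1 array.

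Counts of calls over the 10 comparisons with DMSO moved as follows. The somatic counterparts, 7 higher and 9 lower, gave 4 higher after quantile normalization, 5 lower after centring, 3 lower without _x_at and _s_at probe sets or without the trend, 11 higher with DMSO replicates 1 and 2 alone, and 4 and 3 in fits of only the groups compared. With the replicate block they gave 11 higher. The pentose phosphate genes, 7 higher and 25 lower, gave 4 higher after quantile normalization or without the trend, 3 without _x_at and _s_at probe sets, 11 with DMSO replicates 3 and 4 alone, 3 to 10 without 1 array, and 0 higher and 12 lower in fits of only the groups compared. The glycolysis genes, 37 higher and 51 lower, gave 30 lower without _x_at and _s_at probe sets and 33 in fits of only the groups compared. The other oxidase subunits, 22 higher and 0 lower, gave 1 lower after quantile normalization, with the mean of probe sets or with DMSO replicates 3 and 4, 2 without _x_at and _s_at probe sets, and 0 to 2 without 1 array. The other testis isoforms, 0 in either direction, gave 3 higher with no filter, 1 higher with the replicate block or DMSO replicates 1 and 2, 1 lower with DMSO replicates 3 and 4, and 0 to 1 higher without 1 array. The replicate block kept every TKTL1 call; between doses of DAC its adjusted p was 0.0016. The cause of these changes was not tested. The number of arrays and the unknown background limit what low levels show.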

Other observations

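The genes beside the raised members were looked up after the values were seen. Among 16 tested genes, 2 on each side of TKTL1, TKTL2, COX8C and COX7B2 along the chromosome, 3 were called higher and 3 lower by limma with DAC at 5 µM, against 18% and 14.2% of all genes, and 2 and 2 at 120 nM, against 12.5% and 9.9%. These shares are near those of all genes. NPY1R, a receptor of neuropeptide Y near TKTL2, rose by 1.94 ± 0.17 log2 (SE; limma adjusted p = 1.6e-08) at 5 µM and by 0.85 ± 0.17 (adjusted p = 7.6e-04) at 120 nM, while NPY5R beside it was not called. TEX28, a testis-expressed gene and the nearest tested one before TKTL1, differed by -0.18 ± 0.13 (adjusted p = 0.34) at 5 µM, and EMD, the nearest after it, rose by 0.28 ± 0.07 (adjusted p = 0.0054).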
